A study of Mus musculus with 3 samples.

Results

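The most crowded SmaI sites of the autosomes of ID8 cells were those with at least 5 other listed CCCGGG sites within 500 bp on either side. ID8 is an ovarian cancer line from C57BL/6 mice, labelled as female ovarian surface epithelium, and the 3 libraries are untreated cells of this line with no control group. Of 173449 listed sites, 7744 on chromosomes 1 to 19 were this crowded, and 577 of them had at least 10 reads in each of the 3 libraries. These 577 covered sites are called members; they lay in 276 runs, a run being a chain of listed sites in which each lies at most 500 bp from the next. The series holds 24112 covered sites in all, 23638 of them on these chromosomes. Members were chosen by position and depth, without use of a methylation value, so their depth is given as description. Among sites with close neighbours on both sides, depth differed by the methylation of the rest of the run, as given below. Membership is therefore not independent of methylation there.

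In mammals, DNA methyltransferases add a methyl group to the cytosine of CpG. Most CpGs of the genome are methylated, while CpG islands, which hold many CpGs and often many CCCGGG sequences, are mostly free of methylation and overlie many promoters. Repeated elements are the other place where CpGs gather, and these are usually methylated. The assay, digital restriction enzyme analysis of methylation (DREAM), cuts CCCGGG first with SmaI, which methylation blocks, and then with XmaI, which it does not. An end that starts with GGG comes from an unmethylated site and one that starts with CCGGG from a methylated site. Both enzymes cut the same sequence, so in a complete digest each fragment runs from a site to the next one. The distances from a site to the listed sites beside it, its flanks, are then the lengths of the fragments that can report on it.

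The spacing of the crowded sites fell into a few values. The next site to the right lay exactly 156 bp away at 2748 of the crowded listed sites (35.5%) and exactly 52 bp away at 2512 (32.4%). Distances of 45 bp were found at 490 sites and of 208 bp, the sum of 156 and 52, at 148. The series 156, 52 and 156 bp occurred at 2515 places on the autosomes and the series 52, 156 and 52 bp at 1659, counting overlapping places within an array. A site was called recurring if it took part in a series of 3 successive distances that occurs more than once among the listed sites. By this measure 6543 of the 7744 crowded listed sites (84.5%), in 918 runs, were recurring, against 43 of the listed sites with 2 neighbours (0.495%) and 5070 of those with 3 to 4 (50.3%). Such a series spans 4 sites. The run of a crowded site always holds that many, while the run of a site with 2 neighbours may not. The low share at sites with 2 neighbours may therefore be set in part by the definition.

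**Figure D1:**
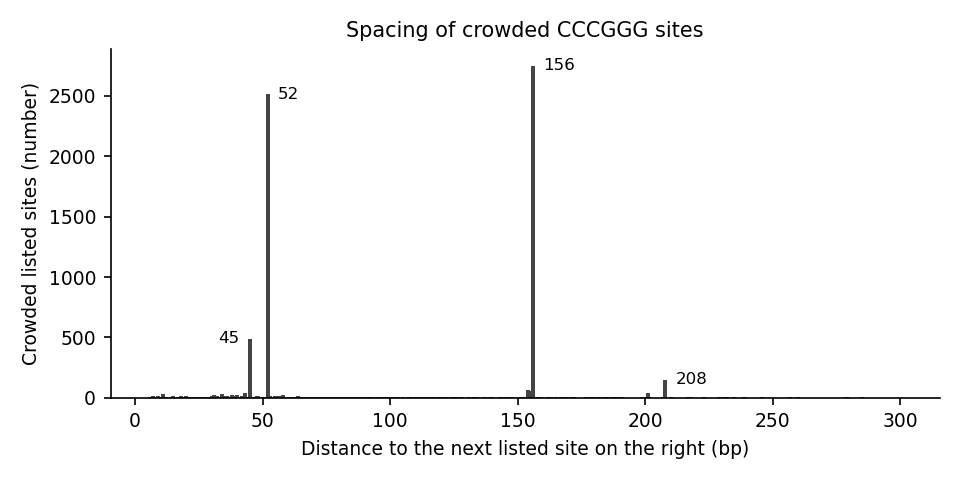
Number of crowded listed sites (vertical axis) by the distance in bp to the next listed site on the right (horizontal axis, up to 300 bp). The bars at 52 and 156 bp hold 2512 and 2748 sites, and those at 45 and 208 bp hold 490 and 148.

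No genome sequence of the files' build was used, so the arrays cannot be read directly. Among 32851 RefSeq promoter windows (build GRCm38.p6, 250 bases before to 50 after a start), 1 holds CCCGGG sites 156 and 52 bases apart, that of A230004M16Rik on chromosome 11, plus strand. It is shown to let the array spacing be seen in sequence; whether it is among the listed arrays was not tested. The 250 bases before its start are given 5′ to 3′ with the CCCGGG sites in capitals.
A230004M16Rik: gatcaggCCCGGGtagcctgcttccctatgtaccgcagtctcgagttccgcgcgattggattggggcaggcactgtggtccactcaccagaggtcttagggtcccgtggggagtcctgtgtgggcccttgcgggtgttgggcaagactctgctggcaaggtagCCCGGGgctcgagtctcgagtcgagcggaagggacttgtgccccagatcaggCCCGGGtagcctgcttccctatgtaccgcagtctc
Over the whole window, 90 of 92 bases (97.8%) were the same as the base 208 positions further on, so the sequence repeats at a distance of 208 bases. As background, the promoters of the A type of mouse LINE-1 retrotransposons are built from tandem units of about this length; whether the arrays are such elements was not tested.

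The uncovered crowded sites were mostly recurring ones. Of the 6543 recurring crowded sites, 6416 (98.1%) had no read in any library and 24 (0.367%, exact Clopper-Pearson 95% interval 0.235% to 0.545%) were covered. Of the 1201 crowded sites whose spacing was found once, 553 (46.0%, interval 43.2% to 48.9%) were covered and 247 (20.6%) had no read. Over all crowded listed sites the covered share was 7.45%. By neighbour number the covered share of all listed sites went from 34.8% with 3 neighbours and 19.4% with 4 to 13.2% with 5, 7.13% with 6, 4.84% with 7, 1.5% with 8 and 0.350% with 9. With spacing found once it was 58.2%, 51.9%, 50%, 47.2%, 36.4%, 29.2% and 10.0% for 3 to 9 neighbours, the last 2 values from 48 and 20 listed sites. Of the 68 listed sites with 10 or more neighbours, up to 22, none was covered.

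**Figure D2:**
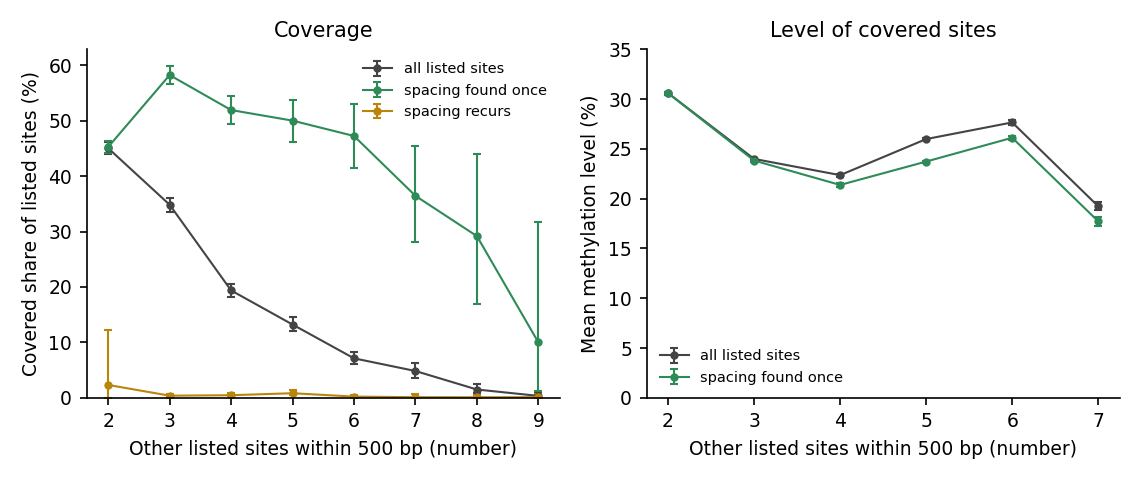
Left, share of listed sites that were covered (%) by the number of other listed sites within 500 bp, with exact 95% intervals; right, mean methylation level of covered sites (%) with the SD over 3 libraries, for 2 to 7 neighbours. The covered share of all sites (grey) is 13.2% at 5 neighbours, that of sites with spacing found once (green) is 50%, and the level of the latter moves between 17.7% and 30.6%.

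The members, 7.45% of the crowded listed sites, were mostly unmethylated. The members' mean level was 26.0% ± 0.0799 (SD, n = 3 libraries), and 382 of 577 (66.2%) were low (under 10%), 64 (11.1%) partial and 131 (22.7%) high (70% or more). No methylated read was found in any library at 171 members; at their median of 238 summed reads, 0 reads allow a level of up to 1.26%. No unmethylated read was found at 19. Between libraries the median SD of a low member was 0.0728 percentage points, that of a partial one 3.73 and that of a high one 1.25. The class was the same in all 3 libraries at 99.0% of low, 81.3% of partial and 95.4% of high members.

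The recurring members differed from the others in level. The 24 recurring members averaged 76.3% ± 0.418 (SD, n = 3) with a median of 146.5 summed reads, and 16 were high, 7 of them at 100%, and 2 low. The 553 members with spacing found once averaged 23.8% ± 0.0898 with a median of 486 reads, and 380 of them (68.7%) were low, 58 partial and 115 (20.8%) high. All reads at recurring crowded sites, covered or not, came to 8344 summed over the libraries, and 64.3% of them were methylated. The sources used here do not say how reads that align to several places were handled. The number of copies behind a recurring site is therefore unknown.

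Crowded sites were then compared with the next class, the 2841 covered sites with 3 to 4 neighbours, which averaged 23.5% ± 0.117 (SD, n = 3). Members were 2.51 percentage points higher ± 0.0496 (SD of the difference), in 3 of 3 libraries, with an exact sign-flip p of 0.25 (two-sided), the smallest that 3 libraries allow. Without recurring sites the difference was 0.731 points ± 0.0326 (23.8% against 23.1%, exact sign-flip p = 0.25). With only sites whose longer flank was 100 bp or more it was -0.529 points ± 0.0282 (22.2% against 22.7%, exact sign-flip p = 0.25), also in 3 of 3 libraries. The direction of the difference therefore depended on which sites were kept; both subsets were chosen after the spacing was seen. The share of high sites was 22.9% ± 0.459 among members and 20.1% ± 0.0733 with 3 to 4 neighbours, a difference of 2.77 points (exact sign-flip p = 0.25), and 0.0625 points ± 0.600 in the last subset (exact sign-flip p = 0.75).

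Level had no steady order by neighbour number within the members. With spacing found once, sites with 5 neighbours averaged 23.7% ± 0.0986 (SD, n = 3; 345 sites), with 6 26.1% ± 0.201 (145 sites), with 7 17.7% ± 0.469 (47 sites) and with 8 25.8% ± 0.596 (14 sites). Such SDs hold library error alone, not site-to-site variation. At the threshold, the 842 covered sites with 4 neighbours averaged 22.4% and the 362 with 5 averaged 26.0%. On the side of depth, crowded sites with 5 to 9 reads in their least covered library averaged 34.4% (77 sites) and those with 10 to 14 reads 39.99% (31 sites). The shallowest members were thus above the members' mean, and the just-excluded sites were too.

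The 5 members with the most neighbours show the range. With 9 neighbours, the site at position 78002473 of chromosome 11 (mm9), in the run that holds the promoter of Rab34, a small GTPase, was at 1.12%, 0.812% and 0.783% in replicates 1, 2 and 3 over 3525 summed reads. The site at 79748108 of chromosome 9, a recurring one, was at 100% in each library over 74 reads. The site at 113652257 of chromosome 11 was at 13.3%, 20% and 12.1% over 68 reads. With 8 neighbours, 3807144 of chromosome 12 and 136392280 of chromosome 4 were at 0.301% ± 0.242 (SD, n = 3) and 0.612% ± 0.271. The deep sites among these were low in all libraries, and those with fewer than 100 summed reads were not.

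Depth followed the length of the longer flank. Among crowded sites with spacing found once, 16 of the 320 (5.00%) with a longer flank under 100 bp were covered, against 537 of the 881 (61.0%) with 100 bp or more. The covered share was 6.74% at 80 to under 100 bp, 44.8% at 100 to under 125 bp, 72.0% at 125 to under 150 bp, 64.4% at 150 to under 200 bp, 71.8% at 200 to under 250 bp, 82.1% at 250 to under 300 bp and 84.8% at 300 to under 400 bp, and fell again to 47.4% at 600 to under 1000 bp and 20.4% beyond. The median reads of covered sites, summed over libraries, rose from 86 at 100 to under 125 bp through 149 at 125 to under 150 bp, 324.5 at 150 to under 200 bp and 1042.5 at 200 to under 250 bp to 2252 at 300 to under 400 bp. By the shorter flank, 30.4% of sites with a shorter flank under 20 bp were covered, against 80.3% of those with 100 to under 150 bp. Members had a median longer flank of 218 bp, against 309 bp at covered sites with 3 to 4 neighbours, and a median of 104, 165 and 193 reads in replicates 1, 2 and 3, against 214, 315 and 360.

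**Figure D3:**
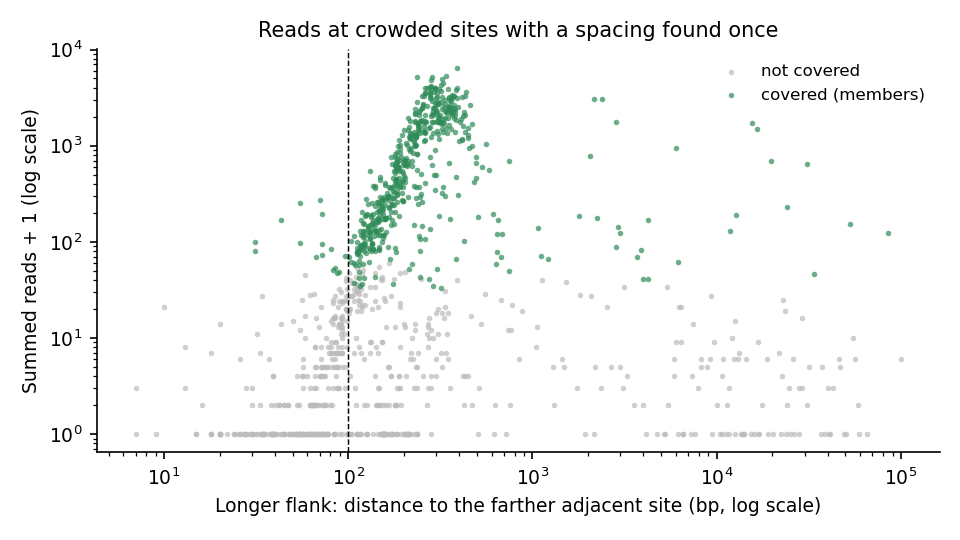
Reads summed over the 3 libraries plus 1 (log scale) against the longer flank in bp (log scale) for the 1201 crowded sites with spacing found once; members are green and other sites grey. Right of the dashed line at 100 bp the reads climb by flank length to a median of 2252 at 300 to under 400 bp, and left of it 16 of 320 sites are covered.

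Level had no steady order by flank length above 100 bp. The mean level lay between 17.7% and 31.0% in each class of longer flank from 100 bp up. Below 100 bp the 16 covered sites averaged 80.1%. Of these 10 were high, 6 partial and none low, the lowest at 42.1%. The share of such sites that passed the depth limit differed by the level of their run, as given below. The 16 therefore do not stand for all sites with such flanks. Over all members, the median was 625.5 summed reads at low, 287.5 at partial and 300 at high members.

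The sites with both flanks under 100 bp were therefore compared with the rest of their run, using sites with spacing found once. A run was classed by the mean of its covered sites with a longer flank of 100 bp or more. In low runs the 166 crowded short-flank sites had a median of 1 summed read and 66 (39.8%) had none; in high runs the 46 such sites had a median of 10.5 reads and 9 (19.6%) had none. Their mean reads per site were 1.39, 1.11 and 2.23 in low runs and 6.20, 6.98 and 9.63 in high runs in replicates 1, 2 and 3, higher in high runs in 3 of 3 libraries. In the 46 such sites of partial runs the median was 8 reads and the means were 7.43, 7.98 and 13.1, above those in high runs. Crowded sites of the same runs with a longer flank of 100 bp or more had medians of 149 reads in low, 109 in partial and 101 in high runs. Short-flank sites with 2 to 4 neighbours, which are no members, had medians of 1 read in low (293 sites), 15 in partial (74 sites) and 13.5 in high runs (64 sites). In both groups the low runs stood apart, and partial and high runs had no fixed order. Sites are not replicates, and this difference in reads was not tested.

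**Figure D4:**
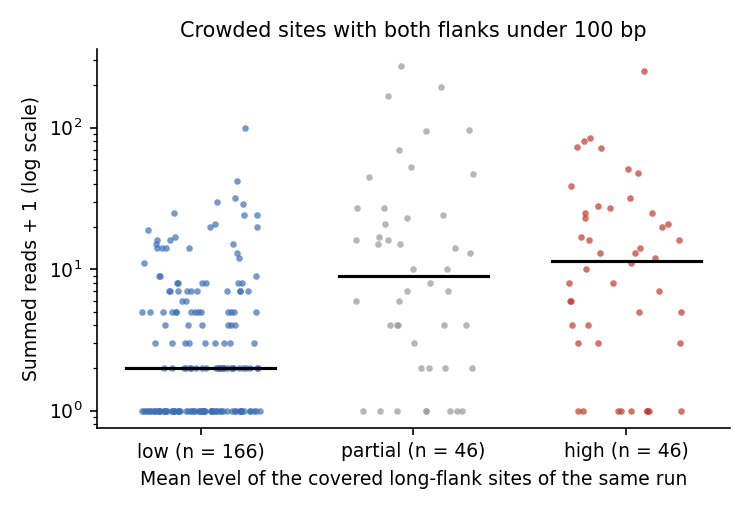
Reads summed over the 3 libraries plus 1 (log scale) at crowded sites with both flanks under 100 bp, by the class of the covered long-flank sites of the same run; each point is a site and the bar is the median. The medians are 1, 8 and 10.5 reads in low (166 sites), partial (46) and high runs (46).

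The reads at short-flank sites were also compared in level with crowded sites of the same runs whose longer flank was 100 bp or more. The class of a run came from its own covered long-flank sites. That choice can set the long-flank values below the short-flank ones in low runs and above them in high runs. The values in those classes are therefore given as description. The difference was widest in partial runs, where 69.8% ± 3.06 (SD, n = 3) of the short-flank reads were methylated against 38.0% ± 1.29. Without the site with most methylated reads, 83718001 of chromosome 12 with 192 of 192, the first value was 64.6% ± 3.79. In low runs the values were 9.26% ± 0.668 and 0.468% ± 0.0282, but a single site, 75970883 of chromosome 5, gave 58 of the 72 methylated reads. Without it 14 of 688 reads were methylated, 2.15% ± 1.57 over libraries, with each library still above those of the longer flanks. In high runs the values were 92.5% ± 1.14 and 89.0% ± 0.697. Without the site at 35633380 of chromosome 14 the first was 90.2% ± 0.592. It was still above the second within each library, though the ranges over libraries overlapped. At sites with 2 to 4 neighbours the same pairs were 6.70% and 0.420% in low and 51.5% and 37.6% in partial runs. There the high runs went the other way, with 76.2% ± 0.507 at short and 86.8% ± 0.358 at longer flanks. Without the site with most methylated reads of each class, these short-flank values were 3.90% in low, 47.0% in partial and 72.9% in high runs. The limit of 10 reads per library kept 1 of 166 crowded short-flank sites in low, 8 of 46 in partial and 7 of 46 in high runs. Of the 16 short-flank members, 13 were above the mean of the covered long-flank sites of their run, a count that depends on that limit. That site of chromosome 5, at 75970883, with flanks of 30 and 31 bp, was at 51.7%, 53.6% and 66.7% over 29, 28 and 42 reads, while those sites of its run averaged 6.63%. The site at 35440325 of chromosome 7, with flanks of 87 and 28 bp, was at 45.5%, 41.7% and 39.1%, and those of its run averaged 18.9%. The cause of these differences was not tested.

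Runs were mostly uniform. Of the 82 runs with at least 3 members, which held 302 members, 52 (63.4%) had every member low, 9 every member high, 3 (3.66%) a low and a high member, and 18 (22.0%) a partial member without that. The median difference between the highest and the lowest member of a run was 1.28 percentage points. The SD within runs was 15.1 points and that over all these members 38.6. By their members the 52 low runs had levels of 0% to 1.32%, with a median of 0.210%. Runs also hold covered sites with fewer than 5 neighbours, which are no members. Counting these, every covered site was low in 49 of the 52 runs and high in 7 of the 9.

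Genes were tied to runs by spacing alone, without converting coordinates. Successive distances between 3 or more CCCGGG sites in RefSeq promoter windows were searched among the listed sites. CCCGGG, which reads the same on both strands, is found in 13.5% of the windows and at least 3 times in 0.481% of them. Of 197 such series, 176 were found once in the listed sites and on the same chromosome, 0 once on another chromosome, 18 were found more than once and 3 were not found. In this way 44 runs with a member were tied to a promoter. In 34 of them every member was low, in 4 every member was high, 2 held a low and a high member and 4 a partial one. Over all 276 runs with a member the same counts were 177 (64.1%), 50, 6 and 43. Of these 276 runs, 113 had a single member. The set tied to promoters favours those with many sites and is not a sample of all runs. The counts are of members anywhere in the run and need not describe the promoter itself. In 12 of the 44 runs, 9 of them all low, no member was among the matched promoter sites, and in 29 of the 34 low runs every covered site of the run was low. At Vldlr, which encodes a lipoprotein receptor, the run's single member was at 0.515%, but the promoter site at -20, no member, was at 99.8% ± 0.315 (SD, n = 3) over 399 reads.

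The promoters that follow are shown because each differs in level or in which of its sites could be read; all are the 250 bases before a start from RefSeq (GRCm38.p6), 5′ to 3′, with CCCGGG in capitals.
Dnmt3a (chromosome 12, plus strand): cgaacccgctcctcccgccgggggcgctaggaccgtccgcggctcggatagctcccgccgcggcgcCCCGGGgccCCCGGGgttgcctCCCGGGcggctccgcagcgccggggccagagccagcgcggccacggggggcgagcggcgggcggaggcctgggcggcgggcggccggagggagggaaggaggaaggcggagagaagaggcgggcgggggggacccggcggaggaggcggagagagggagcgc
Pid1 (chromosome 1, minus strand): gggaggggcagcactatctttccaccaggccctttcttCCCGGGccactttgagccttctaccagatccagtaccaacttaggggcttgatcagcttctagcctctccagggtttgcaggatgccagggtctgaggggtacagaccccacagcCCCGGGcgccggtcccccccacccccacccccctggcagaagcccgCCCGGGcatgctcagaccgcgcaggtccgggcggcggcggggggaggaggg
Slc7a10 (chromosome 7, plus strand): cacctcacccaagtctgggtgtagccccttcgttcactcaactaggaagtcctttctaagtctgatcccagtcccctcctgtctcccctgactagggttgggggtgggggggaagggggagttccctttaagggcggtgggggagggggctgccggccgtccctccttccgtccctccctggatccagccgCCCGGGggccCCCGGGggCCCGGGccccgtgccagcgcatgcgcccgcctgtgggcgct
Tox3 (chromosome 8, minus strand): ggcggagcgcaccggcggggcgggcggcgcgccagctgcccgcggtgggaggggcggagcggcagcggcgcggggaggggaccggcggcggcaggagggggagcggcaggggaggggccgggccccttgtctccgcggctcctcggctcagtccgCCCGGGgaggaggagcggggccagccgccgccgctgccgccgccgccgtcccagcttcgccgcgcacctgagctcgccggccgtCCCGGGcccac

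The run at Dnmt3a, which encodes a de novo DNA methyltransferase, held the most members of any run by the tie-break of reads: 6 members among 11 listed sites, on chromosome 12 from 3806534 to 3807972 (mm9). Its members averaged 0.150% ± 0.0282 (SD, n = 3) over 8549 summed reads and none exceeded 0.366%. Of the 3 sites printed for it, those at -184 and -162 from the start were at 0.366% ± 0.298 and 0.173% ± 0.182 over 1783 and 1686 summed reads. The site between them, at -175, has flanks of 9 and 13 bp and had 2 reads. The outer sites face fragments of 265 and 323 bp. The promoter thus read as unmethylated from its outer sites, and its inner site was not measured.

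Other low runs were tied to promoters of genes with varied roles. The run tied to 9230110K08Rik and Camta1, a calmodulin-binding transcription activator, had 4 members at 1.17% ± 1.19 (SD, n = 3). Its 2 matched members lay in the window of 9230110K08Rik. The matched site of the Camta1 window, at -196 and no member, was at 0.0471% ± 0.0488 over 7020 reads. Klf3, a zinc finger repressor, had 3 members at 0.0685% ± 0.0841. The first site of the Klf3 run, at 65193787 of chromosome 5 and no member, was at 58.4% ± 0.955 over 2096 reads. Met, the receptor of hepatocyte growth factor, had 1 member, at 0.330% ± 0.572 over 386 summed reads. Wnk1, a kinase that regulates ion transport, had 3 at 0.512% ± 0.227, and Zdhhc17, a palmitoyltransferase, had 3 at 0.135% ± 0.0655. Ttc7 with 4833418N02Rik had 5 members at 0.0957% ± 0.0920. At a divergent promoter, that of the collagen genes Col4a1 and Col4a2, the single member was at 0.0269% ± 0.0466 over 3318 reads. These examples were picked from the 34 after their values were seen. The next 4 low runs by number of members and then reads lay on chromosome 19 from 29175350 to 29176165 (5 members, 0.153% ± 0.0293) and from 5424273 to 5425250 (5 members, 0.210% ± 0.200), on chromosome 10 from 17775277 to 17776494 (5 members, 0.690% ± 0.352) and on chromosome 2 from 153353912 to 153355875 (5 members, 0.893% ± 0.0897). The last of these starts with a covered site, 153353912, that is no member and was at 99.5% ± 0.107 over 592 reads.

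The 9 runs with every member high averaged between 83.7% and 99.2%. The run tied to Tox3, which encodes an HMG-box protein, lay on chromosome 8 from 92871321 to 92872545, and its 3 members were at 99.2% ± 0.107 (SD, n = 3) over 3586 reads. The 2 Tox3 sites printed above had only 5 and 15 summed reads, 5 and 14 of them methylated, although the first has a flank of 301 bp. On chromosome 14 the run from 35633313 to 35633687 averaged 98.2% ± 0.367 (4 members) and that from 48740843 to 48741264 91.3% ± 3.25 (3 members). On chromosome 4 the runs starting at 119940451 and 104039874 averaged 97.5% ± 0.175 (3 members) and 96.7% ± 3.47 (4 members). The first site of the second run, at 104039874 and no member, was at 3.73% ± 1.44 over 337 reads. The run of chromosome 12 from 83717743 to 83718277 averaged 95.2% ± 1.39 (3 members), while its last site, at 83718277 and no member, was at 5.68% ± 1.40 over 73 reads. The remaining 3 lay on chromosome 6 from 24905691 to 24906455 (90.7% ± 2.27, 4 members), on chromosome 13 from 70020888 to 70022139 (87.8% ± 0.829, 3 members, recurring spacing) and on chromosome 2 from 106533952 to 106534558 (83.7% ± 1.59, 4 members). In the last, the 4 members were at 96.1%, 85.7%, 71.2% and 81.8% from left to right.

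High runs with fewer members were tied to 3 further genes. Begain, which encodes a postsynaptic density protein, had 2 members at 99.7% ± 0.459 (SD, n = 3) and 97.6% ± 0.605 over 1137 and 1162 reads. Kcnma1, the pore subunit of the large-conductance calcium-activated potassium channel, had 2 members with a mean of 95.9% ± 2.0 over 194 reads. Neither was among its matched promoter sites, which had 27, 2 and 0 reads. The member at 24823706 has flanks of 53 and 96 bp and had 71 reads. Crtac1, which encodes a cartilage acidic protein, had 1 member at 96.4% ± 1.29 over 3132 reads.

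Changes of level inside runs were tested over all adjacent covered sites up to 500 bp apart, as limma's test of the difference within libraries. A pair was called if its level changed by 20 percentage points or more and limma's p, adjusted by Benjamini-Hochberg, was below 0.05. Over all 8888 pairs, 29.4% were called. Of the 296 pairs in which both sites were members, 43 (14.5%) were called, in 30 of 160 runs, and 19 of these exceeded 50 points. The share was below that of other pairs at each spacing: 19.4% against 25.9% up to 100 bp, 9.56% against 23.8% over 100 to 200 bp and 18.2% against 33.0% over 200 to 500 bp. Pairs share sites and runs, so no test was made of these shares. Without replicate 3 the count of called pairs fell to 28, and with at least 50 reads per library it was 21 of 148.

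The 5 largest called steps separated sites at most 258 bp apart. On chromosome 4, the site at 120725366 was at 100% in each library (365, 506 and 537 reads) and the site at 120725384, 18 bp on, at 0% in each (201, 227 and 236 reads), with limma's adjusted p = 8.53e-05. The outer fragments of this pair are 305 and 354 bp long. On chromosome 7 the level went from 1.08% ± 0.939 (SD, n = 3) at 69608797 to 97.9% ± 3.61 at 69608842, 45 bp on, but the second site has both flanks under 100 bp and only 84 summed reads (limma's adjusted p = 0.000723). On chromosome 9 it went from 7.47% ± 1.40 at 118515834 to 100% at 118515949, over 41 and 47 reads (limma's adjusted p = 0.000243). The remaining 2 steps enclose a single site of chromosome 16. The site at 35156323 was at 0%, 1.23% and 2.56% over 261 summed reads, between 93.4% ± 0.867 at 35156065 (2228 reads) and 90.0% ± 1.11 at 35156573 (1832 reads), with limma's adjusted p = 0.000829 and 0.000816. The step on chromosome 4 and the low site on chromosome 16 were the same in all 3 libraries.

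**Figure D5:**
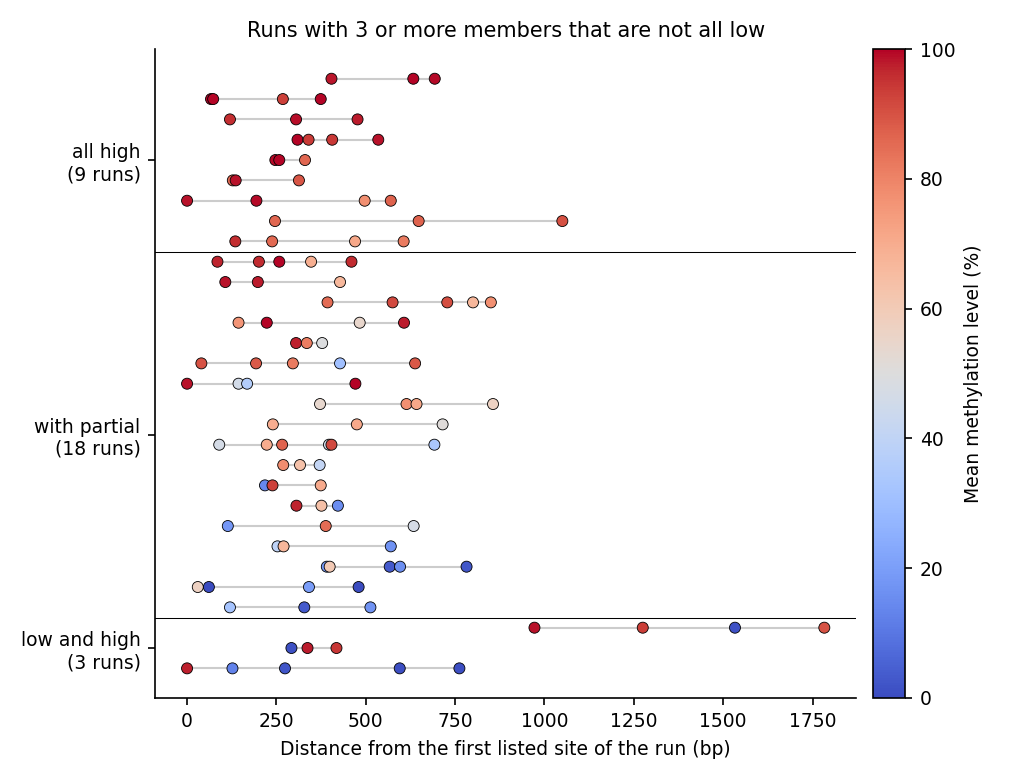
Each line is a run with 3 or more members in which not every member is low, and each point a member, placed by its distance in bp from the first listed site of the run and coloured by mean level over 3 libraries. The 9 runs with every member high stand at the top, the 18 with a partial member in the middle and the 3 with a low and a high member at the bottom.

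The 3 runs with a low and a high member differed in shape. In the run of Ephb2, a receptor tyrosine kinase for ephrins, on chromosome 4 from 136391518 to 136392720, the 5 members went from 97.4% ± 2.32 (SD, n = 3) through 12.5% ± 7.45 to values between 0.412% and 2.28%; the first 2 had 78 and 84 summed reads. Beyond them, 3 covered sites that are no members were at 24.5%, 30.3% and 58.0%. In that of chromosome 16 from 35154790 to 35156713 a low site stood among high ones, as above. In that of chromosome 7 from 69608505 to 69609248 a low site was followed by 2 high ones, and the site before it, at 69608505 and no member, was at 99.8% ± 0.219. A further run with 2 members was tied to Slc7a10, a neutral amino acid transporter. Its member at 35971409 was at 8.33% ± 8.33 over 35 reads and the next, at 35971584, at 76.9%, a step of 68.6 points (limma's adjusted p = 0.0262). Of its 3 printed sites, 8 to 10 bp apart, the first had 1 methylated read of 13, the second 20 of 20 and the third 12 of 13, so reads differed in level also between sites too shallow to be members.

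Levels varied from site to site in the runs with partial members. The run at Pid1, which encodes an adaptor with a phosphotyrosine interaction domain, has 4 sites in its promoter window on chromosome 1. The site at -212, with 4 neighbours and so no member, was at 66.5% ± 4.32 (53 reads). The sites at -97 and -51 were at 15.4% ± 9.19 (SD, n = 3; 56 reads) and 63.9% ± 5.84 (270 reads), and the one at 19 bases past the start at 97.1% ± 1.38 (1328 reads). The site at -51 has flanks of 70 and 46 bp. The run of chromosome 5 from 126012901 to 126013657 had 6 members of 8 listed sites, with a mean of 62.3% ± 2.10. Its members were at 46.7%, 70.1%, 86.7%, 45.7%, 91.7% and 33.2% from left to right; the sites at 126013298 and 126013305 are 7 bp apart and had 542 and 1345 reads. In each library the left site of this pair was the lower, at 41.9% against 91.5%, 47.3% against 92.9% and 47.9% against 90.6%. In the run tied to Kcnj4, an inward rectifier potassium channel, the 2 members were at 74.5% and 23.2%, a called step of -51.3 points (limma's adjusted p = 0.000683). Neither was among the 3 matched promoter sites. Those sites, no members, were at 27.6%, 66.4% and 89.3%, at -209, -187 and 40 bases from the start. The run tied to Celsr2, an atypical cadherin, and to Gm52630 had 2 members, with a mean of 58.7% ± 3.10. Both lay in the promoter window of Gm52630. The 2 sites in the Celsr2 window, no members, were at 80.4% ± 2.32 and 94.2% ± 2.08 over 1358 and 87 reads.

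The libraries did not differ detectably at the members. Over all 23638 covered sites, Fisher's exact test (Benjamini-Hochberg adjusted) called 1 site between replicates 1 and 2 (0.00423% of sites), 1 between 1 and 3 (0.00423%) and 0 between 2 and 3 (0%), and 0 of them was a member. Without adjustment, 15, 15 and 8 of the 577 members had an exact p below 0.05 (2.60%, 2.60% and 1.39%, against 2.97%, 2.94% and 2.83% of all covered sites), and the chi-square test also called 0. The median absolute difference at members was 0.159, 0.234 and 0.207 percentage points for the same pairs. The 3 libraries held 7689526, 9190335 and 10361138 reads, of which members had 1.99%, 2.17% and 2.20%. The labels do not say whether the libraries came from separate cultures; the p-values then reflect only how far these samples differ, which may be technical.

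Members lay on every autosome, from 6 on chromosome 18 to 73 on chromosome 4. They made up between 0.936% of the covered sites of chromosome 18 and 4.48% of those of chromosome 14. Their mean level ranged from 12.3% on chromosome 17 (35 members in 13 runs) to 52.4% on chromosome 18 (6 members in 4 runs). Few runs stand behind each value, so these chromosome means describe the runs, not the chromosomes.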

How the data were processed

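The authors deposited, for each of 3 libraries, a table of counts of methylated, unmethylated and total reads per CCCGGG site, not normalized, with a raw percent and an adjusted percent that they computed from them, per the file headers. Bowtie2 and SAMtools are named, with builds mm9 and rn4, in the submitters' processing notes; for versions, repeated sequence and collapsing of copies, the setting was not given in the sources used here. The site identifiers name mm9. The series table of summed counts was not used.

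The level of a site was 100 times methylated over total reads per library, averaged over the 3 libraries. Neighbours, flanks and runs were computed from all listed sites. Pairs of libraries were tested by Fisher's exact test (scipy 1.17.1), and adjacent sites by limma 3.58.1 on arcsine square root differences within libraries, both with Benjamini-Hochberg adjustment and tested on simulated data. Exact Clopper-Pearson intervals (95%) and limits from 0 reads (3 reads) cover counting error only. Named runs were, among runs of 3 or more members, the 5 with most members, up to 10 all high (9 existed), 5 all low and up to 5 with a low and a high member (3 existed), ties by reads; the 5 largest called steps; and the 5 members with most neighbours. Other runs are named through a promoter match. The members and lists were chosen with earlier results of these data known. Recurring spacing, the 100 bp limit, the comparison of short-flank sites and leaving out its site with most methylated reads were chosen after seeing the data.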

Additional observations from a re-analysis of the deposited data

Results flagged for a closer look

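Reads were also counted at crowded sites of the X chromosome, which the choice of autosomes leaves out. The 794 crowded listed sites there held 8934 summed reads, and the 13 that were covered averaged 50.2% ± 0.912 (SD, n = 3).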

How the results depend on the processing

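The members' mean level was 24.0% with at least 20 reads per library and 21.3% with 50, 25.5% and 25.8% with neighbours counted within 250 and 1000 bp, 26.3% with 1 value per run, 28.4% by the authors' adjusted percent, 23.8% without recurring sites and 22.2% without these and with a longer flank of 100 bp or more. The last 2 alternatives were chosen after seeing the data. In the same order, leaving out the value per run, the high share was 20.9%, 18.6%, 23.7%, 22.0%, 25.9%, 20.9% and 19.5%; with class limits of 20% and 80% it was 19.9%.

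The difference from sites with 3 to 4 neighbours changed sign in mean level with at least 50 reads (-1.20 points), with a window of 1000 bp (-1.38) and in the last subset (-0.529). In high share it changed sign with at least 50 reads (-0.490) and with 1000 bp (-1.17). The cause was not tested. With 20 reads the difference in mean level was 1.19 points, and with 250 bp 3.43.

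The covered share of crowded listed sites was 6.69% with 20 reads, 4.89% with 50, 8.58% with 250 bp, 16.0% with 1000 bp, and 49.3% in the runs without any recurring series. With 50 reads 25 runs were all low, 1 all high and 1 had a low and a high member; by the adjusted percent 5 had both. Called steps were 21 with 50 reads, 85 with no minimum difference, and 28 to 33 with 1 replicate left out. Leaving out 1 replicate gave mean levels of 26.0% to 26.1% and differences of 2.48 to 2.53 points, and kept the counts of runs at 52, 9 to 10 and 3 to 4. Of the 18 named runs, 16 moved by more than their SD with the adjusted percent, 11 with at least 50 reads and 5 with at least 20. Leaving out 1 replicate cannot move a run by its SD over 3 libraries, so that measure tells nothing about the runs. No paired analysis was possible because there is only 1 group, with no other whose libraries it could be paired with; differences between sites were taken within libraries.

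Levels are missing for most recurring crowded sites, 98.1% of which had no read in any library. Among crowded sites with spacing found once, 43.1% of those with both flanks under 100 bp had none. The cause of these missing reads was not tested.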
